A study of Mus musculus with 12 samples.

Results

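Neurotransmitter receptor subunits are described here across mouse embryonic stem (ES) cells turned towards neural fates, in a line that carries an inducible copy of Dmrt5 and in its parent without that copy. Dmrt5 is a gene (symbol Dmrta2) for a DNA-binding factor of the Dmrt family. The members were the probe sets whose only gene symbol belongs to the GABA-A, glycine, AMPA, NMDA, kainate, delta, metabotropic glutamate, nicotinic acetylcholine or serotonin receptor families. They comprised 135 of 34945 probe sets with 1 symbol and stood for 70 of 18193 genes. By class, 15 genes coded for GABA-A, 5 for glycine, 4 for AMPA, 6 for NMDA, 5 for kainate, 1 for delta, 6 for metabotropic glutamate, 15 for nicotinic and 13 for serotonin receptors.

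The study hybridised 12 Affymetrix arrays, 2 for each of 6 groups. The rtTA-Dmrt5 line, which carries the doxycycline transactivator rtTA and a Dmrt5 gene under tetracycline control, gave groups labelled +Dox and -Dox at day 9 and at day 7 of monolayer differentiation. Its parent, the rtTA line, carries the transactivator without the inducible gene and gave groups labelled +Dox and -Dox at day 7. All groups were grown in N2B27, a serum-free medium in which ES cells become neural without added inducers, and Dox (doxycycline) was given or withheld from day 5. Whether the inducible line is 1 clone, which promoter drives the transactivator and whether replicates were separate cultures are not given in the sources used here, and the p-values cover only the spread between arrays of a group, which may be technical. RNA from day 9 rtTA cells was not analysed here.

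Transmitters released at synapses act through these receptors. GABA-A and glycine receptors are chloride channels of 5 subunits that usually inhibit mature neurons and can excite immature ones. AMPA, NMDA and kainate receptors are glutamate-gated cation channels, delta receptors resemble them but act mainly as synapse organisers, and metabotropic glutamate receptors signal through G proteins. Nicotinic receptors are acetylcholine-gated cation channels, and serotonin receptors are G-protein coupled apart from the Htr3 channels. In a differentiating culture subunit genes come on at different stages, some already in progenitors and many only in neurons.

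The values were log2 intensities whose median over the 12 arrays was 0 in each probe set, so a value of 1 stands for 2-fold above that median and says nothing about abundance. The precision with which each number was stored gave a coarse class of the level before centring. By that reading 1 member, Chrnb4, lay at log2 8 or above, which was 1.43% of the members against 32.9% of all genes. A further 31 members lay between 4 and 8, 37 between 2 and 4, and 1, Gabrg1, under 2. The members were thus dim compared with all genes, and differences between dim probe sets are known to be compressed on such arrays.

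The targeted gene was read first. Dmrta2 stood at -1.07 and -1.92 in the arrays labelled rtTA-Dmrt5 day 9 +Dox, against 1.07 and 1.16 in those labelled -Dox. At day 7 it stood at -0.14 and -0.95 in arrays labelled +Dox, against 1.91 and 1.85 in those labelled -Dox. In rtTA cells it stood at 0.41 and -0.28 in +Dox arrays and at -0.22 and 0.14 in -Dox arrays. The Dmrta2 signal was thus lower under the +Dox label of the inducible line, by -2.61 (limma adjusted p = 0.000495) at day 9 and -2.42 (limma adjusted p = 0.00198) at day 7 on the log2 scale, which goes against the direction that an induced gene would take. Whether the probe set can read the inducible copy is not given, so every Dox direction below rests on the labels. Hybridisation spike-ins averaged -0.81 in day 9 +Dox arrays against 0.10 in day 9 -Dox arrays and lay between -0.20 and 0.16 in the other groups, and the difference between 3' and 5' Actb probe sets was 0.21 against -0.02 at day 9. Between the lines at day 7 without Dox, the Actb difference was -0.32 in rtTA arrays against 0.06 in rtTA-Dmrt5 arrays. What part these play in the day 9 differences or in those between the lines was not tested. Sox1, Sox2, Nes, Tubb3, Dcx, Stmn2, Map2 and Snap25, markers of neural progenitors and neurons, all had recovered levels of at least 8.

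Of the 70 subunit genes, 31 passed a limma adjusted p of 0.05 in at least 1 of 8 comparisons and 39 passed in none, beside 50.7% of all genes past it at least once, and the plot of called members by array shows the values of the 31.

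**Figure D1:**
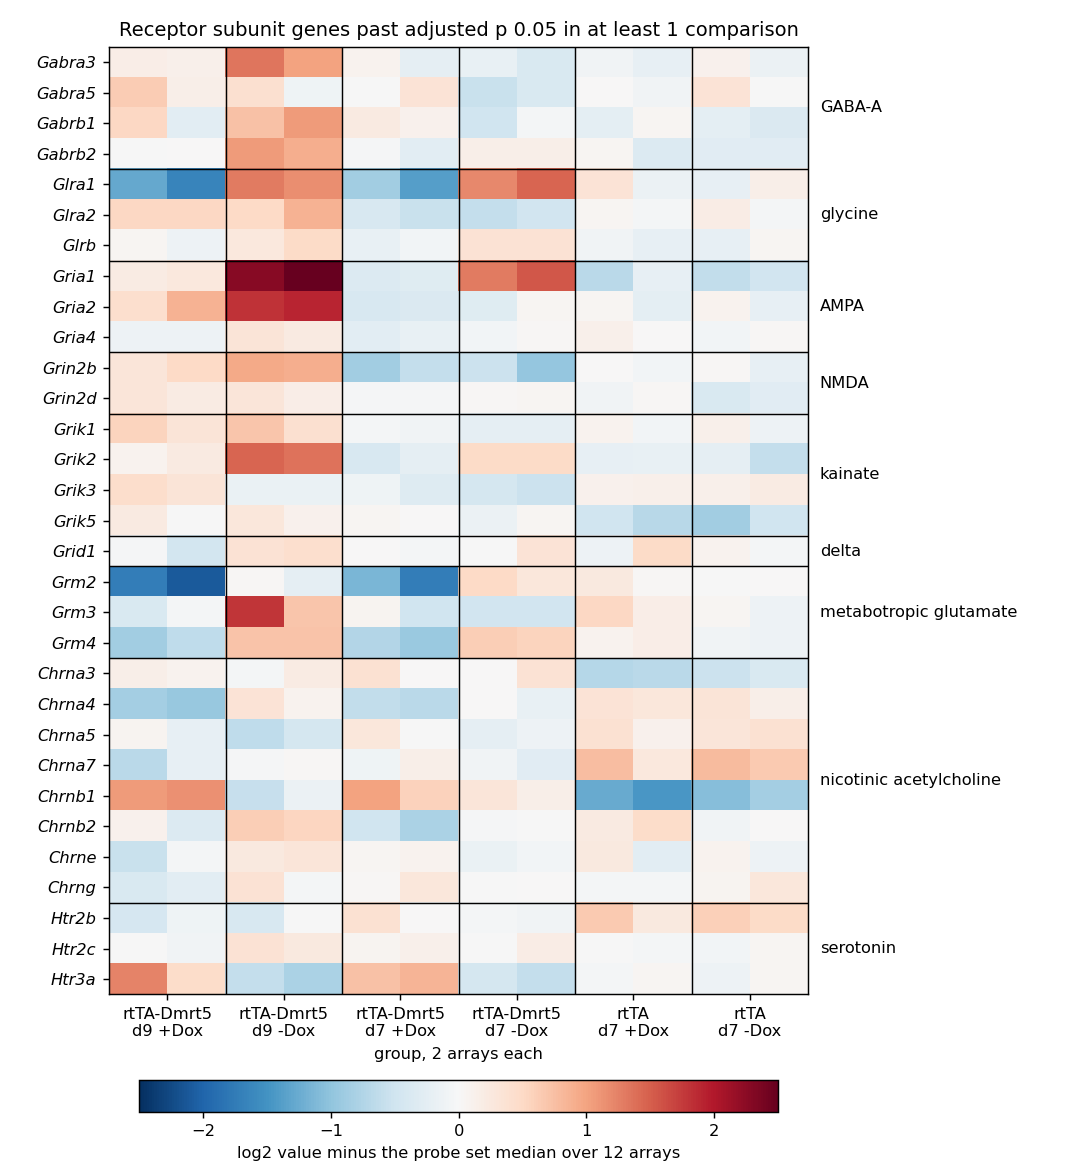
Centred log2 values (colour) of the 31 subunit genes past adjusted p 0.05 in at least 1 comparison, one column for each of 12 arrays in 6 groups of 2. Gria1, Glra1, Grm2, Grm4 and Grik2 are lower in rtTA-Dmrt5 +Dox arrays than in -Dox arrays on both days, while Htr3a is higher.

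The comparison of arrays labelled +Dox and -Dox in the rtTA-Dmrt5 line asks which subunit genes differ when Dmrt5 induction is called for. At day 9, 19 members were lower and 4 were higher in +Dox arrays, and at day 7, 8 were lower and 1 was higher. The largest falls were in Glra1, Gria1, Grm2 and Grm4, which changed by -2.69 to -1.47 on the log2 scale at day 9, and the rises were in Htr3a on both days and in Chrnb1, Grik3 and Chrna5 at day 9. At day 9 the called members made up 32.9% of the members, against 28.2% of all genes, so their total was near the background. Their direction was not split as in all genes: 27.1% of members were lower against 11.3% of all genes, and 5.71% were higher against 16.9%. These directions hold as labelled: were the +Dox and -Dox labels of the inducible line exchanged, every fall here would be a rise of the same size, with 27.1% of members higher against 11.3% of all genes and 5.71% lower against 16.9%. At day 7 12.9% of members were called against 6.94% of all genes, with 11.4% of members lower against 3.85% of all genes and 1.43% higher against 3.08%. A change of at least 2-fold was called for 11 members at day 9 (background 4.4%) and for 5 at day 7 (background 1.8%). The median change of the 70 members was -0.13 at day 9 and -0.02 at day 7, beside 0.01 for all genes in each. The arrays of the 2 labels did not overlap in any called member. This held for 42 members (60.0%) at day 9 against 62.0% of all genes, for 31 (44.3%) at day 7 against 56.8%, and for 21 (30.0%) in the rtTA line against 33.1%, so that alone did not set members apart. The 9 members called at day 7 were all called in the same direction at day 9. The like share over all genes called at day 7 was not counted here, so the overlap was not read as particular to the members.

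**Figure D2:**
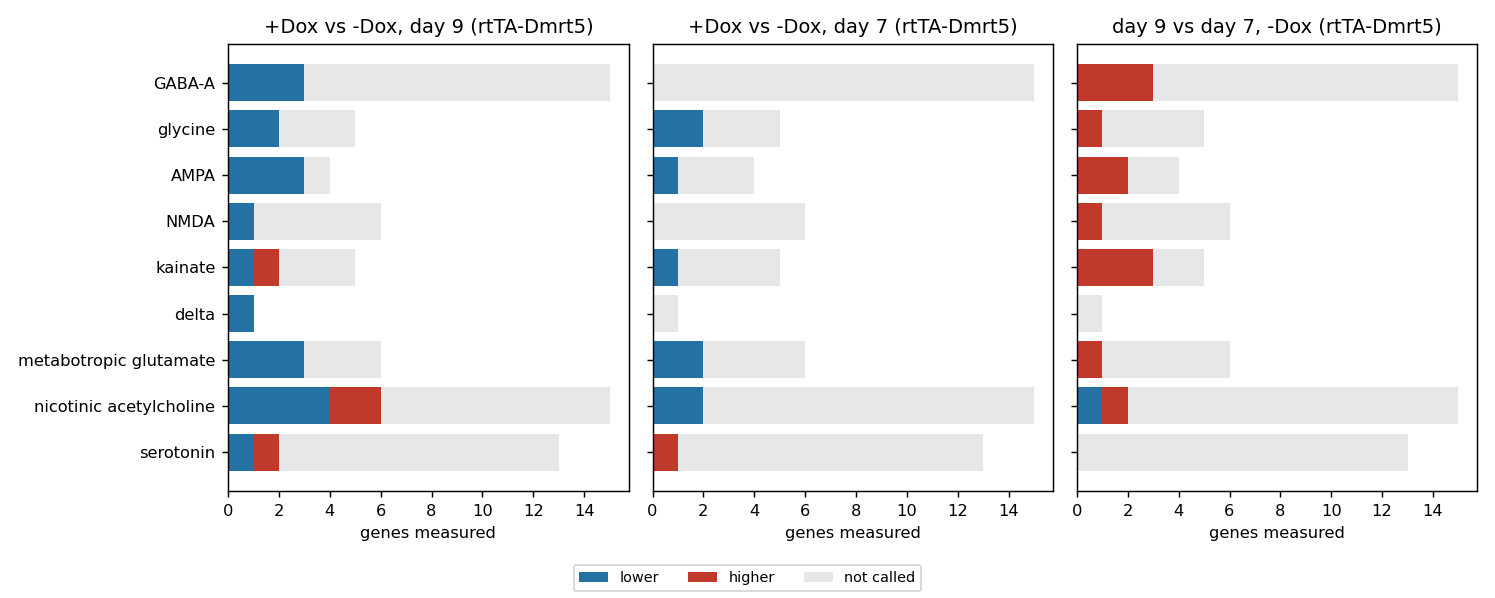
Number of measured subunit genes (x axis) in each receptor class (y axis) that were lower, higher or not called at adjusted p 0.05, for +Dox against -Dox at day 9 and at day 7 and for day 9 against day 7 without Dox in rtTA-Dmrt5. Falls under +Dox are spread over 9 classes at day 9 and over 5 at day 7, whereas 12 of the 13 day changes without Dox are rises.

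Among inhibitory receptors, the glycine receptor gene Glra1 gave the largest change of any member. Glra1 encodes the ligand-binding alpha subunit of the adult spinal glycine receptor, and its loss of function causes exaggerated startle in humans and mice. Its value was -1.29 and -1.65 in day 9 +Dox arrays and 1.29 and 1.15 in day 9 -Dox arrays. At day 7 it was -0.88 and -1.38 in +Dox arrays and 1.20 and 1.46 in -Dox arrays, while rtTA arrays lay between at 0.34 and -0.15 with Dox and -0.21 and 0.15 without. The +Dox and -Dox arrays of the inducible line did not overlap on either day, and the 4 parental arrays stood between them. The log2 change was -2.69 ± 0.22 (SE, limma adjusted p = 5.78e-05) at day 9 and -2.46 ± 0.22 (SE, limma adjusted p = 0.000181) at day 7. A second, dimmer probe set of Glra1 showed -0.37 and -0.55 on the same days. Glrb, the beta subunit that ties glycine receptors to the scaffold gephyrin, fell by 0.41 at day 9 (limma adjusted p = 0.0282) and by 0.48 at day 7 (limma adjusted p = 0.0400). Glra2, the alpha subunit of embryonic neurons, showed -0.17 and 0.06, which missed the threshold. The remaining glycine genes, Glra3 and Glra4, showed 0.03 each at day 9.

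GABA-A subunit genes were called at day 9, where 3 of 15 were lower in +Dox arrays and none higher. Of all genes, 11.3% were lower and 16.9% higher at day 9, with 28.2% called in either direction. The class thus had a larger share of falls than all genes, but a smaller share of calls in either direction. At day 7 limma called none of the 15, and 2 had an unadjusted p under 0.05. Gabra3, an alpha subunit typical of developing brain, stood at 0.17 and 0.13 in day 9 +Dox arrays, against 1.34 and 1.0 in day 9 -Dox arrays. Its values at day 7 were 0.09 and -0.22 in +Dox arrays and -0.18 and -0.38 in -Dox arrays, and the rtTA arrays lay from -0.21 to 0.10. The day 9 -Dox pair was thus above the other 10 arrays. The change was -1.02 ± 0.15 (SE, limma adjusted p = 0.00103) at day 9 and 0.22 (limma adjusted p = 0.467) at day 7. Gabrb2, a beta subunit of the most common adult receptor, fell by 0.98 at day 9 (limma adjusted p = 0.000714), and 4 of its 5 probe sets showed -0.78 to -1.22. Gabrb1, another beta subunit, fell by 0.77 at day 9 (limma adjusted p = 0.0395), but its other 3 probe sets, of lower level class, showed 0.19, -0.12 and 0.00. The dimmer probe set of Gabra3 showed 0.09. The 11 GABA-A genes called in none of the comparisons, Gabra2, Gabra4, Gabra6, Gabrd, Gabre, Gabrg1, Gabrg3, Gabrp, Gabrq, Gabrr1 and Gabrr2, ranged from -0.28 to 0.29 at day 9.

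AMPA receptors carry most fast excitation in the brain. In +Dox arrays 3 of their 4 subunit genes were lower at day 9, beside 11.3% of all genes. Gria1 stood at 0.21 and 0.26 in day 9 +Dox arrays and at 2.27 and 2.50 in day 9 -Dox arrays. Day 7 arrays gave -0.35 and -0.31 in +Dox arrays and 1.29 and 1.55 in -Dox arrays, and rtTA cells gave -0.68 and -0.21 with Dox and -0.61 and -0.49 without. The -Dox arrays of the inducible line were above all others on each day, and day 7 +Dox arrays fell within the span of the parental arrays. The log2 change was -2.15 ± 0.15 (SE, limma adjusted p = 2.68e-05) at day 9 and -1.75 ± 0.15 (SE, limma adjusted p = 0.000157) at day 7, and both probe sets of Gria1 moved alike (-2.41 and -1.90 at day 9).

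Gria2 encodes the subunit whose edited form makes AMPA channels nearly impermeable to calcium. It stood at 0.43 and 0.87 in day 9 +Dox arrays and at 1.80 and 1.90 in day 9 -Dox arrays, whereas day 7 values were -0.39 and -0.36 with Dox and -0.30 and 0.06 without. The rtTA arrays lay from -0.25 to 0.09. The Gria2 change was -1.20 ± 0.18 (SE, limma adjusted p = 0.00115) at day 9 and -0.25 (limma adjusted p = 0.492) at day 7, and the difference between those responses, -0.95, missed the threshold (limma adjusted p = 0.0877). Gria4 fell by 0.41 at day 9 (limma adjusted p = 0.00773), and Gria3 showed 0.30 (limma adjusted p = 0.105).

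Of the kainate subunits, Grik2 was lower on both days. Grik2 stood at 0.09 and 0.22 in day 9 +Dox arrays and at 1.46 and 1.36 in day 9 -Dox arrays. At day 7 it stood at -0.39 and -0.23 in +Dox arrays and at 0.47 and 0.47 in -Dox arrays, with rtTA arrays from -0.59 to -0.18. The 2 labels did not overlap on either day. The change was -1.26 ± 0.12 (SE, limma adjusted p = 0.00014) at day 9 and -0.78 ± 0.12 (SE, limma adjusted p = 0.00456) at day 7. Grik3, a related low-affinity subunit, was higher by 0.53 at day 9 (limma adjusted p = 0.00321), while its dimmer probe set showed -0.41, so its 2 probe sets disagree in sign.

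The NMDA subunit Grin2b, which predominates before birth, stood at 0.31 and 0.50 in day 9 +Dox arrays and at 0.95 and 0.91 in day 9 -Dox arrays. Its values at day 7 were -0.86 and -0.60 in +Dox arrays and -0.53 and -0.97 in -Dox arrays, and the rtTA arrays lay from -0.20 to 0.04. The day 9 fall was -0.53 ± 0.16 (SE, limma adjusted p = 0.0306), while at day 7 the labels overlapped and the change was 0.02. The remaining NMDA genes did not pass in either Dox response, with Grin2a, Grin2c, Grin3a and Grin3b from -0.33 to 0.27 at day 9.

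Grid1, a delta receptor gene whose product binds secreted cerebellins, stood at -0.04 and -0.46 in day 9 +Dox arrays and at 0.36 and 0.42 in day 9 -Dox arrays. Its day 7 values were 0.01 and -0.05 with Dox and -0.01 and 0.34 without, and the rtTA arrays spanned -0.13 to 0.49. The day 9 fall of 0.64 ± 0.21 (SE, limma adjusted p = 0.044) was not shared by its dimmer probe set, at 0.03.

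Metabotropic glutamate receptors that lower cyclic AMP, many of them on presynaptic terminals, had 5 measured genes. Of these, 3 were lower in +Dox arrays at day 9 (Grm2, Grm3 and Grm4) and 2 at day 7 (Grm2 and Grm4). Of all genes, 11.3% were lower at day 9 and 3.85% at day 7. Grm2 stood at -1.73 and -2.10 in day 9 +Dox arrays and at 0.03 and -0.22 in day 9 -Dox arrays. Day 7 arrays gave -1.14 and -1.72 in +Dox arrays and 0.49 and 0.28 in -Dox arrays, and the rtTA arrays lay from -0.02 to 0.24. The rtTA-Dmrt5 +Dox arrays were thus the low ones, and the -Dox arrays stood near the parental level. The change was -1.82 (limma adjusted p = 0.000216) at day 9 and -1.81 (limma adjusted p = 0.000521) at day 7.

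Grm4, which acts as a presynaptic brake on release, stood at -0.88 and -0.64 in day 9 +Dox arrays and at 0.71 and 0.71 in day 9 -Dox arrays. At day 7 it stood at -0.74 and -0.93 in +Dox arrays and at 0.61 and 0.56 in -Dox arrays, with rtTA arrays from -0.13 to 0.16. The parental arrays again lay between the labels of the inducible line. The change of Grm4 was -1.47 (limma adjusted p = 2.56e-05) at day 9 and -1.42 (limma adjusted p = 5.53e-05) at day 7.

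Grm3, the nearest relative of Grm2, gave a different pattern. Its values were -0.38 and -0.06 in day 9 +Dox arrays and 1.80 and 0.69 in day 9 -Dox arrays, and at day 7 0.07 and -0.49 with Dox and -0.48 and -0.49 without. The rtTA arrays lay from -0.12 to 0.52. The fall of 1.46 at day 9 (limma adjusted p = 0.00756) rested on a -Dox pair that differed by more than 1 log2 unit within itself. Without the higher of these arrays the change was -0.90 (limma adjusted p = 0.0358), and the call was lost without replicate 1 of the day 9 +Dox arrays. Grm5, Grm7 and Grm8 showed -0.36 to -0.17 at day 9 and were not called.

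**Figure D3:**
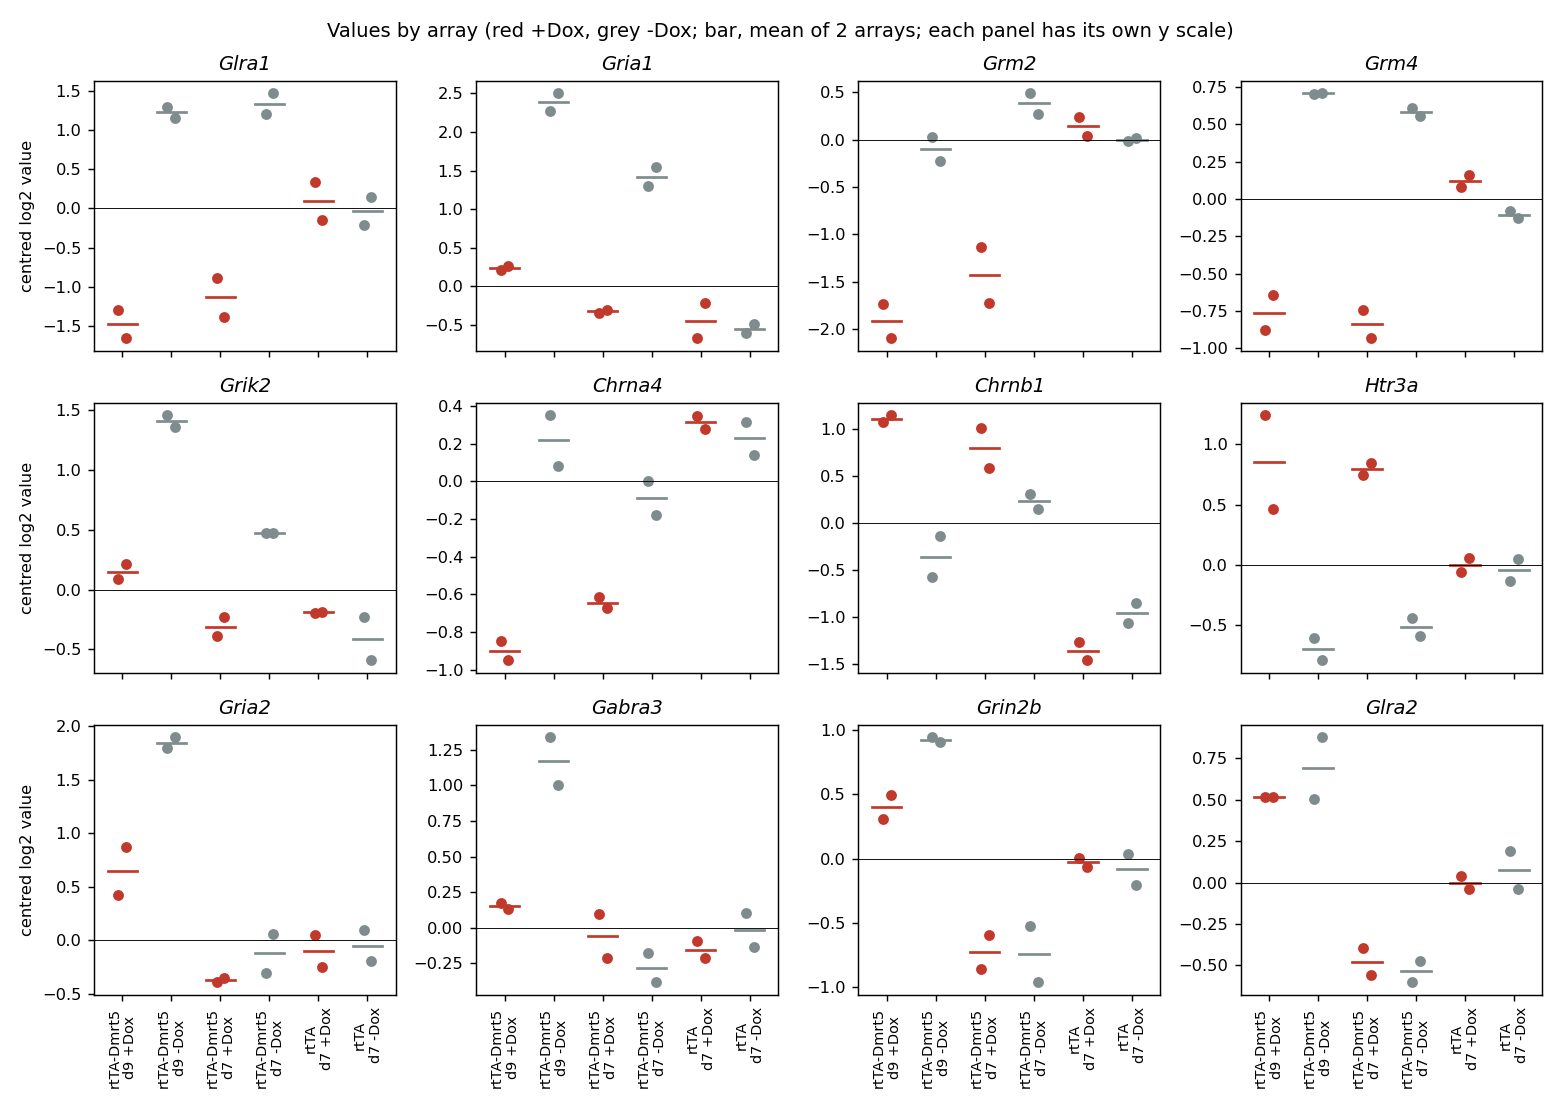
Centred log2 values (y axis, a scale for each panel) of 12 subunit genes in every array, in groups of 2 arrays on the x axis; points are arrays and bars are group means. For Glra1, Gria1, Grm2, Grm4 and Grik2 the +Dox and -Dox points of rtTA-Dmrt5 stand apart on both days; for Gria2, Gabra3 and Grin2b the high points are the day 9 -Dox arrays.

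The promoters of 4 genes that represent these patterns are given for the sequence itself: Grm2, Grik2 and Chrnb2, called lower on both days and in the test between lines, and Chrnb1, the muscle-type subunit gene that was higher at day 9. They are the 250 bases before the annotated start, on the gene's strand, from RefSeq on build GRCm38.p6, and 52 of the 70 members had such an entry. Grm2 lies at chr9:106656110-106656359, Grik2 at chr10:49788755-49789004, Chrnb2 at chr3:89764633-89764882 and Chrnb1 at chr11:69795938-69796187, all on the minus strand. Capitals mark matches to any of the 4 motifs named after the sequences.
Grm2: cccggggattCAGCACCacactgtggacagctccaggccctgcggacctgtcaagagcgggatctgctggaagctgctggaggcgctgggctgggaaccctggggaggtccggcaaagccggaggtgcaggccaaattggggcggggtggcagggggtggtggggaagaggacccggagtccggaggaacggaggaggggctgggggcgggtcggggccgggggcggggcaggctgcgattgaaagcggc
Grik2: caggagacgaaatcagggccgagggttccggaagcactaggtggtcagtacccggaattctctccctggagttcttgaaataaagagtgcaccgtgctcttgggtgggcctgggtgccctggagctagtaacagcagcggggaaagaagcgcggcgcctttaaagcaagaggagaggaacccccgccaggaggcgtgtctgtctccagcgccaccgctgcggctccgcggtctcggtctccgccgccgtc
Chrnb2: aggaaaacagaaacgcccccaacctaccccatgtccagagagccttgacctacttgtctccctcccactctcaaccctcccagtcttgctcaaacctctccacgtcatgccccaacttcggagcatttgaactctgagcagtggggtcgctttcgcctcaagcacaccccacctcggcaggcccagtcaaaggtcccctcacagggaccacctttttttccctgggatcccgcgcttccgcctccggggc
Chrnb1: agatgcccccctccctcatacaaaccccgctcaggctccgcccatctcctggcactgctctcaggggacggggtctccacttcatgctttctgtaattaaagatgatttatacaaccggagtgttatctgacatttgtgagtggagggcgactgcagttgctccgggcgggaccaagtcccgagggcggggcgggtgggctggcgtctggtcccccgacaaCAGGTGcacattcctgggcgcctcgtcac
The G and C content was 71.2% in Grm2, 62.8% in Grik2, 59.6% in Chrnb2 and 60.4% in Chrnb1, with 16, 20, 10 and 14 CG dinucleotides in that order. The motifs searched on both strands were CAGCTG and CACCTG, 2 forms of the E-box of basic helix-loop-helix factors, CAGCACC, the left part of the site of the neuronal repressor REST, and ACATTGT, the core of the Dmrt family site. A CAGCACC match can overlap a CACCTG match. Among 27025 genes, 14.7% held CAGCTG, 19.4% held CACCTG, 6.56% held CAGCACC and 2.96% held ACATTGT in this window. Among the 52 members the shares were 17.3%, 26.9%, 7.69% and 0.0% in the same order. Grm2 held CAGCACC and Chrnb1 held CAGGTG, which is CACCTG on the other strand, while Grik2 and Chrnb2 held none of the 4. Absence here says only that these letters are not in these windows.

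Nicotinic subunits moved in both directions. Chrna4 and Chrnb2 together form the main high-affinity nicotinic receptor of the brain. Chrna4 stood at -0.85 and -0.95 in day 9 +Dox arrays and at 0.35 and 0.08 in day 9 -Dox arrays. Its values at day 7 were -0.62 and -0.68 in +Dox arrays and 0.00 and -0.18 in -Dox arrays, and the rtTA arrays lay from 0.14 to 0.35. The rtTA-Dmrt5 +Dox arrays were therefore the lowest 4 of the 12. The Chrna4 change was -1.12 (limma adjusted p = 0.000185) at day 9 and -0.56 (limma adjusted p = 0.0196) at day 7, with the same sign in its 3 probe sets. Chrnb2 fell by 0.69 at day 9 (limma adjusted p = 0.00904) and by 0.61 at day 7 (limma adjusted p = 0.0445), although the dimmer of its 3 probe sets showed -0.13 and 0.14.

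Chrnb1, the beta subunit of the neuromuscular junction receptor, was higher at day 9. It stood at 1.07 and 1.14 in day 9 +Dox arrays and at -0.58 and -0.15 in day 9 -Dox arrays. Day 7 arrays gave 1.0 and 0.58 in +Dox arrays and 0.31 and 0.15 in -Dox arrays, and rtTA cells gave -1.26 and -1.46 with Dox and -1.06 and -0.85 without. The parental arrays were the lowest of all. The change was 1.47 ± 0.17 (SE, limma adjusted p = 0.000371) at day 9 and 0.57 (limma adjusted p = 0.0919) at day 7. The other muscle-type subunits called at day 9 went the other way: Chrne, the adult form, fell by 0.57 (limma adjusted p = 0.0486) and Chrng, the fetal form, fell by 0.48 (limma adjusted p = 0.0346), and the 2 dimmer probe sets of Chrng showed 0.10 and -0.21. Of 13 skeletal and cardiac muscle markers, 4 were lower at day 9 (Myod1 by -0.58, Pax7 by -1.64, Actc1 by -1.84 and Myl4 by -1.19) and none was higher, with a list mean of -0.15 and -0.28 in +Dox arrays against 0.07 and 0.26 in -Dox arrays. Their part in the nicotinic changes was not tested.

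Chrna5, Chrna3 and Chrnb4 are neighbouring genes on chromosome 9 whose products form the receptor of autonomic ganglia. At day 9 they showed 0.47 (limma adjusted p = 0.0358), 0.04 (limma adjusted p = 0.883) and 0.27 (limma adjusted p = 0.252) in that order, so only the first was called. The 7 nicotinic genes called in no comparison, Chrna1, Chrna2, Chrna6, Chrna9, Chrnb3, Chrnb4 and Chrnd, ranged from -0.33 to 0.27 at day 9.

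Serotonin receptor genes were mostly below the threshold, with 2 of 13 called at day 9 (15.4%, against 28.2% of all genes) and 1 at day 7. Htr3a, the core subunit of the serotonin-gated channel, stood at 1.24 and 0.47 in day 9 +Dox arrays and at -0.60 and -0.79 in day 9 -Dox arrays. At day 7 it stood at 0.74 and 0.84 in +Dox arrays and at -0.44 and -0.59 in -Dox arrays, with rtTA arrays from -0.13 to 0.06. The labels did not overlap on either day and the parental arrays lay between. The change was 1.55 ± 0.21 (SE, limma adjusted p = 0.000658) at day 9 and 1.31 ± 0.21 (SE, limma adjusted p = 0.00465) at day 7. Htr3b, its neighbour on chromosome 9 and partner in mixed channels, showed 0.07 and -0.09. Htr2c, a G-protein coupled receptor abundant in choroid plexus, fell by 0.36 at day 9 (limma adjusted p = 0.0234). The 10 serotonin genes called in no comparison ranged from -0.31 to 0.43 at day 9.

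**Figure D4:**
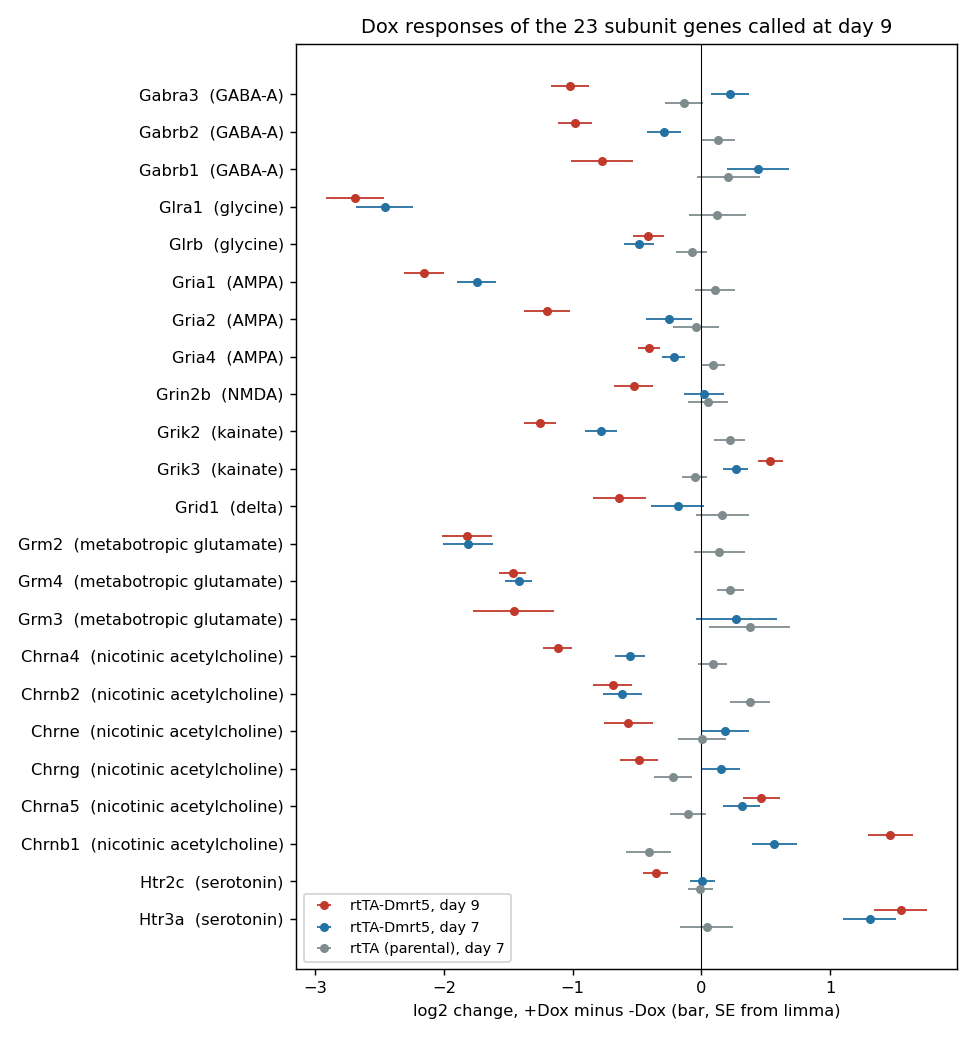
Log2 change of +Dox minus -Dox arrays (x axis; bars, SE from limma) for the 23 subunit genes called at day 9 (y axis, with class), in rtTA-Dmrt5 at day 9 and day 7 and in rtTA at day 7. Parental changes lie within 0.41 of 0, while Glra1, Gria1 and Grm2 lie at about -1.75 or lower on both days.

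The calls differed in how well they stood without single arrays. At day 9, 11 of the 23 were kept in every alternative fit that held the gene, namely Gria1, Gria2, Gabra3, Gabrb2, Glra1, Grik2, Grm2, Grm4, Chrna4, Chrnb1 and Htr3a. Without replicate 1 of the day 9 -Dox arrays, 11 members were lower in place of 19. Gabrb1 changed by -0.39 (limma adjusted p = 0.231) without replicate 2 of the day 9 +Dox arrays and by -1.16 without replicate 1. Chrne changed by -0.31 (limma adjusted p = 0.293) without replicate 1 of the day 9 +Dox arrays, and Chrng by -0.27 (limma adjusted p = 0.24) without replicate 1 of the day 9 -Dox arrays. At day 7, 6 of the 9 calls were kept throughout, and Chrna4, Chrnb2 and Glrb were lost when certain arrays were left out, among them replicate 1 of the day 7 -Dox arrays and either day 7 +Dox array, which left 5 members lower.

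In the parental rtTA line, +Dox against -Dox arrays at day 7 give the response to doxycycline without the inducible gene. No member and no gene of the table passed (background 0.0%) in limma, where 7 members and 929 of all genes had an unadjusted p under 0.05. The largest change of a member was -0.41, in Chrnb1, and the median member showed 0.05 beside 0.01 for all genes. The median half-width of a member's 95% interval was 0.34 on the log2 scale.

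The difference between the day 7 responses of the lines was then tested directly. It was called for 6 members, 8.57% against 2.84% of all genes, all of them lower in the inducible line (background 1.98% lower and 0.857% higher). Glra1 differed by -2.58 (limma adjusted p = 0.00256), Grm2 by -1.95 (limma adjusted p = 0.00603) and Gria1 by -1.85 (limma adjusted p = 0.00213). Grm4 differed by -1.65 (limma adjusted p = 0.00059), Grik2 by -1.0 (limma adjusted p = 0.016) and Chrnb2 by -0.99 (limma adjusted p = 0.0458). The Chrnb2 call was lost in 12 of 19 alternative fits, 10 of which each left out an array. For Htr3a the difference of 1.27 missed the threshold (limma adjusted p = 0.0533).

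The difference between the day 9 and day 7 responses of the inducible line was called for 1 member, or 1.43% of members against 2.42% of all genes. Gabra3 responded by -1.24 log2 units more at day 9 (limma adjusted p = 0.0204), a call lost when any of 5 arrays was left out. These 5 were both day 7 -Dox arrays and replicate 1 of the day 7 +Dox, day 9 -Dox and day 9 +Dox arrays. For Grm2 the difference was -0.01, with a 95% interval of -0.63 to 0.61, and for Grm4 it was -0.05, with an interval of -0.38 to 0.28.

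Between day 9 and day 7 the same line was compared under each treatment, to see which subunit genes change with time in culture. Of 12 markers of undifferentiated ES cells, 10 were higher at day 9 and 1 lower without Dox (median 0.77). With Dox 11 were higher and 1 lower (median 0.90). Their part in the day changes was not tested. Without Dox, 12 members were higher at day 9 and 1 was lower, 18.6% of members against 15.0% of all genes, and the rises made up 17.1% against 7.88% (7.11% of all genes were lower). With Dox, 8 members were higher and none was lower, 11.4% against 16.2% of all genes, with 10.0% of all genes higher and 6.19% lower. The 8 called with Dox were among the 13 called without it. They were Gria2, Grin2b, Glra2, Gria1, Grik2, Grik1, Chrnb2 and Grik3. The calls with Dox were lost for Grik1, Grik2 and Chrnb2 in a fit of only the arrays compared. Array weights lost Gria1, Grik2 and Chrnb2, and the mean of all probe sets lost Grik3. Without Dox, Grik3 and Chrnb1 were lost with only the arrays compared and with robust eBayes.

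The rises without Dox were in both excitatory and inhibitory subunits. Among excitatory ones, Gria2 rose by 1.97 (limma adjusted p = 0.00017), Grin2b by 1.68 (limma adjusted p = 0.000192), Gria1 by 0.97 (limma adjusted p = 0.00306) and Grik2 by 0.94 (limma adjusted p = 0.0011). With Dox the rise was 1.03 for Gria2 (limma adjusted p = 0.00491) and 1.13 for Grin2b (limma adjusted p = 0.00155). The probe sets averaged for Gria2 showed 1.45, 1.70 and -0.07 with Dox, so the last did not rise. Those of Gria1 showed 1.40 and 0.53 without Dox. Glra2, the embryonic glycine receptor subunit, stood at 0.50 and 0.88 in day 9 -Dox arrays against -0.60 and -0.47 in day 7 -Dox arrays, and at 0.52 and 0.52 in day 9 +Dox arrays against -0.40 and -0.56 in day 7 +Dox arrays. It thus rose with time under both labels, by 1.23 (limma adjusted p = 0.00046) without Dox and 1.0 (limma adjusted p = 0.00143) with it.

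Grm3, Gabra3, Gabrb1 and Gabrb2 rose without Dox by 1.72, 1.45, 1.18 and 0.84 in that order, with limma adjusted p from 0.000331 to 0.0103. With Dox they showed -0.01, 0.21, -0.03 and 0.15 and did not pass. Of these 4, the difference between the day changes, which is the same contrast as the difference between the Dox responses, was called for Gabra3 alone, with limma adjusted p of 0.0782 for Grm3, 0.101 for Gabrb1 and 0.0912 for Gabrb2. Chrnb1 was lower at day 9 by 0.59 without Dox (limma adjusted p = 0.0493), and the value was -0.37 (limma adjusted p = 0.281) without replicate 1 of the day 9 -Dox arrays. Chrnb2 rose by 0.52 with Dox, a call lost in 14 of 19 alternative fits. Its rise was 0.30 without replicate 1 of the day 9 +Dox arrays. Grik1 rested on 1 of its 2 probe sets, which showed 1.46 beside 0.07 without Dox. Of the 13 day changes without Dox, 11 genes were also called in the day 9 Dox response, 10 of them in the opposite direction, and both comparisons share the day 9 -Dox arrays.

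**Figure D5:**
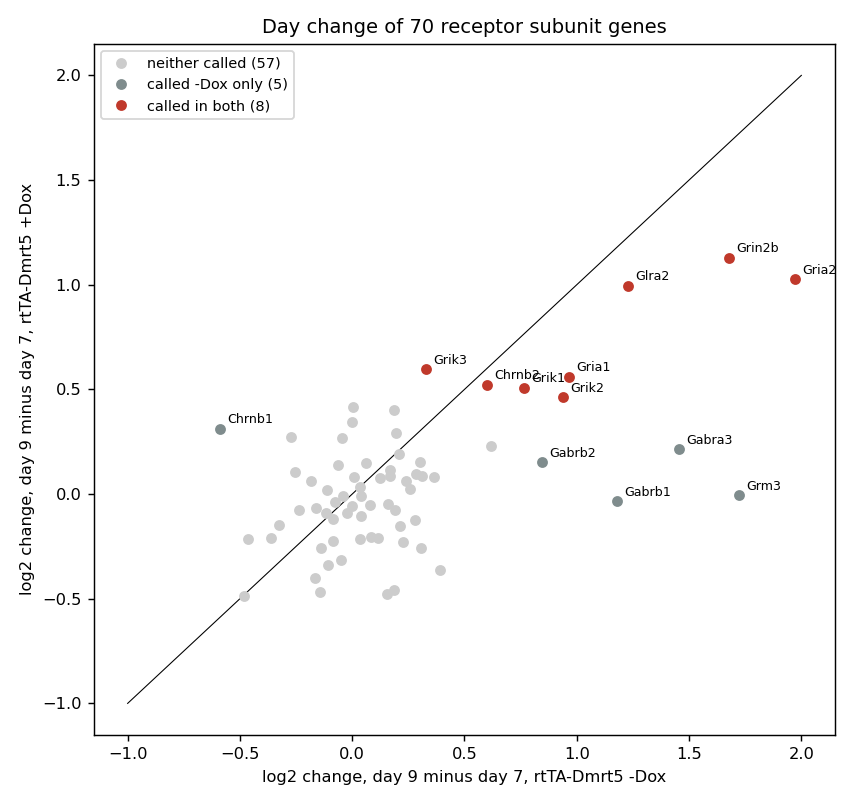
Log2 change of day 9 minus day 7 in rtTA-Dmrt5 with Dox (y axis) against the same without Dox (x axis) for 70 subunit genes; the line marks equal change. Gria2, Grin2b and Glra2 rise under both labels, while Grm3, Gabra3, Gabrb1 and Gabrb2 lie near 0 on the y axis.

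Pan-neuronal genes moved in the direction of most called subunits in the day and Dox comparisons, but not between the lines without Dox. In rtTA-Dmrt5 against rtTA at day 7 without Dox, 7 of these markers were lower and 2 higher (median -0.31). There 10 members were higher and 7 lower. Of 17 such markers, 14 were higher at day 9 without Dox (median 0.67) and 13 with Dox (median 0.80). In the Dox comparison 12 were lower at day 9 (median -0.81) and 11 at day 7 (median -0.68). Their mean was -0.33 and -0.22 in day 9 +Dox arrays against 0.48 and 0.51 in day 9 -Dox arrays, and -0.87 and -1.03 in day 7 +Dox arrays against -0.22 and -0.23 in day 7 -Dox arrays. Their part in the subunit changes was not tested, and in bulk RNA fewer neurons and less RNA per neuron cannot be told apart. Glra1, Grm2 and Grm4 did not follow that list over time, with -0.11, -0.48 and 0.12 between day 9 and day 7 without Dox, none of them called. Among markers of neurons of defined transmitters, 7 of 14 were lower at day 9 under +Dox and Tbr1, a marker of forebrain glutamate neurons, was higher. Gad2, which makes GABA, differed by -2.34, and Isl1, a factor of motor and other cholinergic neurons, by -2.00.

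Without Dox at day 7 the rtTA-Dmrt5 line was also compared with its parent. The Dmrta2 signal of these rtTA-Dmrt5 arrays lay above that of the rtTA arrays, as given above. Were the +Dox and -Dox labels of the inducible line exchanged, this would compare rtTA-Dmrt5 arrays given Dox with the parent without it. Of the members 10 were higher and 7 lower in rtTA-Dmrt5, 24.3% against 28.6% of all genes, so their share did not exceed the background. Gria1 was higher by 1.97 (limma adjusted p = 2.4e-05), Glra1 by 1.36 (limma adjusted p = 0.00169) and Chrnb1 by 1.18 (limma adjusted p = 0.000967). Grik2 was higher by 0.88 (limma adjusted p = 0.000709) and Grm4 by 0.69 (limma adjusted p = 0.00112), whereas Grm2 showed 0.38 and missed the threshold. In day 7 +Dox arrays of the inducible line, Glra1 and Grm4 lay below all 4 parental arrays, and Gria1 and Grik2 lay within their span.

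Smaller rises were called for Chrna3 (0.65), Grik5 (0.64), Glrb (0.43), Gabrb2 (0.43) and Grin2d (0.38). Chrna7, the subunit of the homomeric alpha-bungarotoxin receptor, was lower by 0.90 (limma adjusted p = 0.00667), and Grin2b (-0.66), Grik3 (-0.66), Gabra5 (-0.64), Glra2 (-0.61), Htr2b (-0.60) and Chrna5 (-0.52) were lower too. Gria1, Glra1, Grik2, Grm4 and Chrnb1 were called in every alternative fit that held them, and the count was 5 higher and 2 lower without replicate 2 of the rtTA-Dmrt5 -Dox arrays. It was 6 higher and 2 lower without replicate 1 of the rtTA -Dox arrays. Chrna3 and its neighbour Chrna5 differed in sign between the lines. ES cell markers were lower in rtTA-Dmrt5 for 11 of 12 genes (median -2.34, with Pou5f1 at -3.44), and 6 of 12 epithelial and endodermal markers were higher and 2 lower. Under +Dox, ES cell markers were higher for 10 of 12 genes at day 9 and 7 at day 7, and epithelial and endodermal markers for 10 of 12 and 5. The part of these cell types in the subunit differences was not tested.

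Genes that work with the receptors were called in both directions. Of 46 measured genes for postsynaptic scaffolds, anchors and auxiliary subunits, 11 were higher and 7 lower in day 9 +Dox arrays (median -0.14), beside 16.9% of all genes higher and 11.3% lower. At day 7, 6 were higher and 3 lower (median -0.07), beside 3.08% and 3.85% of all genes in that order. Nptx2, a secreted pentraxin that clusters AMPA receptors, was higher by 1.98 at day 9 and 1.54 at day 7, while Cacng2, the auxiliary subunit stargazin, showed -0.90 and -0.60. Lrp4, the agrin receptor at the muscle endplate, showed -1.30 and -0.93, and Dlg4, the scaffold of excitatory synapses, showed -0.78 at day 9. Cbln1 and Cbln2, ligands of delta receptors, went opposite ways at day 9, with 0.79 and -0.78.

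Of 22 other transmitter receptor genes, 2 were higher and 3 lower in day 9 +Dox arrays, and 1 was higher at day 7. They included the dopamine receptor Drd2 (0.73) and the GABA-B subunit Gabbr1 (-0.70). Of 28 genes for transmitter synthesis and uptake, 3 were higher and 10 lower at day 9, and 3 higher and 6 lower at day 7. For both lists the background at day 9 was 16.9% of all genes higher and 11.3% lower. At day 7 it was 3.08% higher and 3.85% lower. Ache, which breaks down acetylcholine, showed -1.61 at day 9. The glial glutamate transporters Slc1a3 and Slc1a2 went opposite ways at day 9, with 1.21 and -0.92. Each median lay between -0.21 and -0.02, beside 0.01 for all genes. Without Dox, 16 scaffold and auxiliary genes were higher and 2 lower at day 9 than at day 7, beside 7.88% and 7.11% of all genes. Among the higher ones were Cbln2 at 2.88 and the AMPA receptor auxiliary gene Cnih2 at 1.08.

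Likeness of pattern was measured for the member with the widest range in each class, as Pearson's r over the 6 group means against all other genes, and is a description only. Glra1 was most like Mtmr6 (r = 0.995), Nr2e1 (r = 0.991) and Prima1, and Gria1 was most like Itga4 (r = 0.997), Mir124-2hg (r = 0.995) and Spag6l (r = 0.994). For Gabra3 the nearest were Clk1, D630029K05Rik and Rph3a, for Grin2b Adm, Tia1 and Amph, and for Grik2 Plcl1, BC030500 and Steap3. Grid1 was most like Tmem121, Rtn4rl1 and Guca1b, and Grm2 most like Atp6v1g1 (r = 0.998), Alpl and En2. Chrnb1 was most like Tfpi (r = 0.998), Ctsl and Fzd5, and Htr3a most like Pdia6, Fgf3 and Arhgap29. Each r rests on 6 points and was picked as one of the highest over all genes.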

How the data were processed

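Labelled RNA of mouse ES-cell cultures was measured on 12 Affymetrix arrays, from 5 ng of total RNA with Ovation amplification, per the labels. The values are log2, which the authors deposited after RMA, per the submitters' processing notes. The deposited values were centred for each probe set (row medians within 5e-07 of 0), by a step not given in the sources used here, and the build is not given. Of 45101 probe sets, 34945 had 1 symbol in GEO's annotation, 932 several, and 9160 none, and 64 were controls. No array was left out or imputed.

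Probe sets of a gene were averaged within the highest level class that any of them reached, a class read from the spacing of the stored numbers, with no filter on low values. limma 3.58.1 in R 4.3.3 fitted 6 group means to 18193 genes, with Benjamini-Hochberg adjustment over all of them and a threshold of 0.05. The steps were tested on simulated data. Tables used Python 3.11.15, pandas 2.3.3 and numpy 2.4.6, and figures matplotlib 3.10.9. The number of arrays limits the precision. Alternatives were the mean of all probe sets, a level of at least 4, array centring, only the arrays compared, array weights, robust eBayes, a replicate block, each probe set by itself, and each array left out.

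Any member past the threshold could be named, members changed at least 2-fold in a Dox response and the widest of each class were given by array, and listed genes were named where called or where they define a cell type. Members and lists were chosen with earlier results of these data known. Glial markers were lower for 3 of 11 genes at day 7 under +Dox, and 1 was higher and 1 lower at day 9. Progenitor markers were 3 higher and 3 lower of 12 at day 7 and 2 and 4 at day 9. Of 11 mesenchymal markers 2 were higher and 3 lower at day 7, and 3 higher and 1 lower at day 9. Of 10 neural crest and peripheral neuron markers 3 were lower at day 7 and 4 at day 9. Same-numbered arrays deviated from their group means with correlations of -0.049 to 0.109, so the numbers were not taken to pair samples.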

Additional observations from a re-analysis of the deposited data

Results flagged for a closer look

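The day 7 Dox response differed between the lines for 6 members in a direct test (an interaction contrast in limma). It was -1.85 for Gria1, -2.58 for Glra1, -1.0 for Grik2, -1.95 for Grm2, -1.65 for Grm4 and -0.99 for Chrnb2 on the log2 scale, with rtTA-Dmrt5 minus rtTA as the direction. Of the 6, Gria1, Glra1, Grm2 and Grm4 passed in every alternative fit that held them. The Dox response of the inducible line differed between day 9 and day 7 for Gabra3, by -1.24. Groups of 2 arrays allowed no test of single arrays that stand apart.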

How the results depend on the processing

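Over 77 called pairs of member and comparison, the alternatives with a value per gene gave 1445 values. Of these, 1230 kept direction and side of the threshold, 215 kept direction but lost the call and 0 changed sign. In many of these fits the sign could not change, so the absence of sign changes says little about direction. The log2 change stayed the same with robust eBayes, array weights, the replicate block, a level of at least 4 or only the arrays compared. It also stayed the same where the array left out lay outside the comparison. Single probe sets were not among the 1445 values. In the day 9 Dox response a dimmer probe set of each of Grik3, Gabra3, Gabrb1, Grid1 and Chrng had the opposite sign to the gene value. The cause was not tested for any of the moved counts. The count of members higher at day 7 under +Dox (1) became 0 among genes with a level of at least 4, where Htr3a was not tested, 3 with array weights and 2 with the replicate block. The count lower at day 9 (19) became 12 with array weights. Members higher in the difference between lines (0) became 1 with only the arrays compared, with array weights and with the replicate block. The count lower in the difference between days (1) became 0 with the mean of all probe sets. For day 9 minus day 7 without Dox, the 12 higher became 19 counted by probe set, and the 1 lower became 2 with the mean of all probe sets and 0 with array centring, with only the arrays compared, with robust eBayes and by probe set. With Dox, the 8 higher became 5 with only the arrays compared and 5 with array weights, and the 0 lower became 1 among genes with a level of at least 4 and 1 with the replicate block. The replicate numbers did not pair the samples, and a block on them called 911 genes at day 7 and 4678 at day 9. Leaving out each array gave 5 to 8 members lower and 1 to 1 higher under Dox at day 7, 11 to 19 lower and 3 to 5 higher at day 9, and 0 to 0 in rtTA. It gave 4 to 6 lower and 0 to 1 higher between lines, and 0 to 2 lower and 0 to 0 higher between days. For day 9 minus day 7 it gave 9 to 12 higher and 0 to 1 lower without Dox, and 4 to 7 higher and 0 to 1 lower with Dox. For rtTA-Dmrt5 against rtTA without Dox it gave 5 to 11 higher and 2 to 8 lower. Most members lie in the lower level classes, so small changes in them may be missed.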
